A study of Homo sapiens with 8 samples.

Results

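Binding of 2 steroid receptors, the glucocorticoid receptor (GR) and that for progesterone (PR), was examined around CDKN1A, CDKN1B and CDKN1C, the 3 genes for the inhibitors of cyclin-dependent kinases known as p21, p27 and p57. The peaks taken were all those in the 8 deposited ChIP-seq lists that touched one of the gene bodies or the 50 kb on either side of it. Of 94404 peaks in the 8 lists, 16 met this rule, and merged where they overlapped they made 8 sites. CDKN1A had 3 sites, CDKN1B 1 and CDKN1C 4. The peak farthest out within the limit lay 42.6 kb from CDKN1A, and the first ones beyond it lay 56.9 kb and 57.3 kb from CDKN1C.

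The cells were T47D A1-2, a derivative of the human breast cancer line T47D that the series describes as holding both receptors, and T47D MTVL WT, which the labels name as the control line. GR was precipitated from A1-2 cells after 60 min in 10 nM dexamethasone (Dex, a synthetic glucocorticoid), after 60 min in 10 nM R5020 (a synthetic progestin) and without hormone. PR was precipitated from A1-2 cells and from MTVL cells, in each line after 60 min in 10 nM R5020 and without hormone, and input DNA of A1-2 cells made the last library. All cells had been kept in serum stripped of hormones and then starved of serum to synchronize them before hormone was added. Each condition had 1 library, so no value below has a replicate error and no p-value is given, and line, library and depth cannot be told apart in any comparison of A1-2 with MTVL cells. The lists held 18538 GR peaks after Dex, 1198 after R5020 and 455 without hormone. For PR they held 28563 peaks in A1-2 cells after R5020 and 693 without hormone, 43398 in MTVL cells after R5020 and 221 without hormone, and the input list held 1338. RNA was not measured, so the sites carry no statement on expression of the genes.

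CDKN1A, CDKN1B and CDKN1C form the Cip/Kip family, whose proteins bind complexes of a cyclin with its kinase and hold cells back from DNA synthesis. CDKN1A is the best known target of p53 and is also regulated by progestins in breast cancer cells, CDKN1B restrains the cycle of resting cells, and CDKN1C is an imprinted gene that glucocorticoids induce in several cell types. GR and PR are closely related nuclear receptors that recognise the same palindromic DNA element as dimers. A receptor can bind far from the gene that it regulates, so a site near a gene is not thereby assigned to it.

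One of the 8 sites lay inside a gene body, that of CDKN1A, and the PR peaks there spread across the region where transcription begins. The promoter of CDKN1A in RefSeq (GRCh38.p14, chr6:36678464-36678763, plus strand) is shown for this reason, from 250 bases before to 50 bases after the start, with matches to the GC box GGGCGG in capitals.
CDKN1A promoter: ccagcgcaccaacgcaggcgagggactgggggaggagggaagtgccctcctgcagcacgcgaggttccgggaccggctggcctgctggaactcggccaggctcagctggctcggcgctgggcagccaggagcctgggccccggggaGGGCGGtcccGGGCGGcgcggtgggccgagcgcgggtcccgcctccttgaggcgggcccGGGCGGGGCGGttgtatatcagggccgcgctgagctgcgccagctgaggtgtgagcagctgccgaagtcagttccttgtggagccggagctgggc
The GC box, a sequence bound by factors of the Sp1 family, matched 4 times on the strand shown, the last 2 matches sharing a base. GGGCGG or its reverse complement CCGCCC occurred in 45.0% of 35116 RefSeq promoters of this length, however many matches each held. The share with 4 matches or more was not counted. The hexamer AGAACA (or TGTTCT), one arm of the element of GR and PR, was absent here and present in 14.8% of the promoters. The looser palindrome GNACANNNTGTNC was also absent and occurred in 0.39%. These letters cover 300 bases only, and no hg19 sequence was used here for the peaks themselves. CDKN1B had no peak at its promoter, so its sequence is not shown.

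In all 3 loci the listed peaks came from 3 of the 8 lists, namely GR after Dex with 3 peaks, PR of A1-2 cells after R5020 with 7 and PR of MTVL cells after R5020 with 6. The GR list after R5020 and the untreated lists of GR and PR held 0 peaks there, as did the input list. Those short lists had at least 1 peak in few stretches as long as the CDKN1A window: 2.39% for GR after R5020, 0.762% for untreated GR, 1.17% and 0.773% for untreated PR of A1-2 and MTVL cells, and 4.34% for input. A count of 0 was thus the usual one and marks nothing about these genes. The GR peak after R5020 nearest to CDKN1C lay 102.4 kb away, and those nearest to CDKN1A and CDKN1B lay 949.0 kb and 1535 kb away. The nearest untreated peaks of any list were at least 1085.9 kb from a member gene, and the nearest input peak was 888.4 kb from CDKN1A. A site without a listed peak is one that did not pass the threshold of the authors' peak caller in that library. It is not shown to be unbound.

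**Figure D1:**
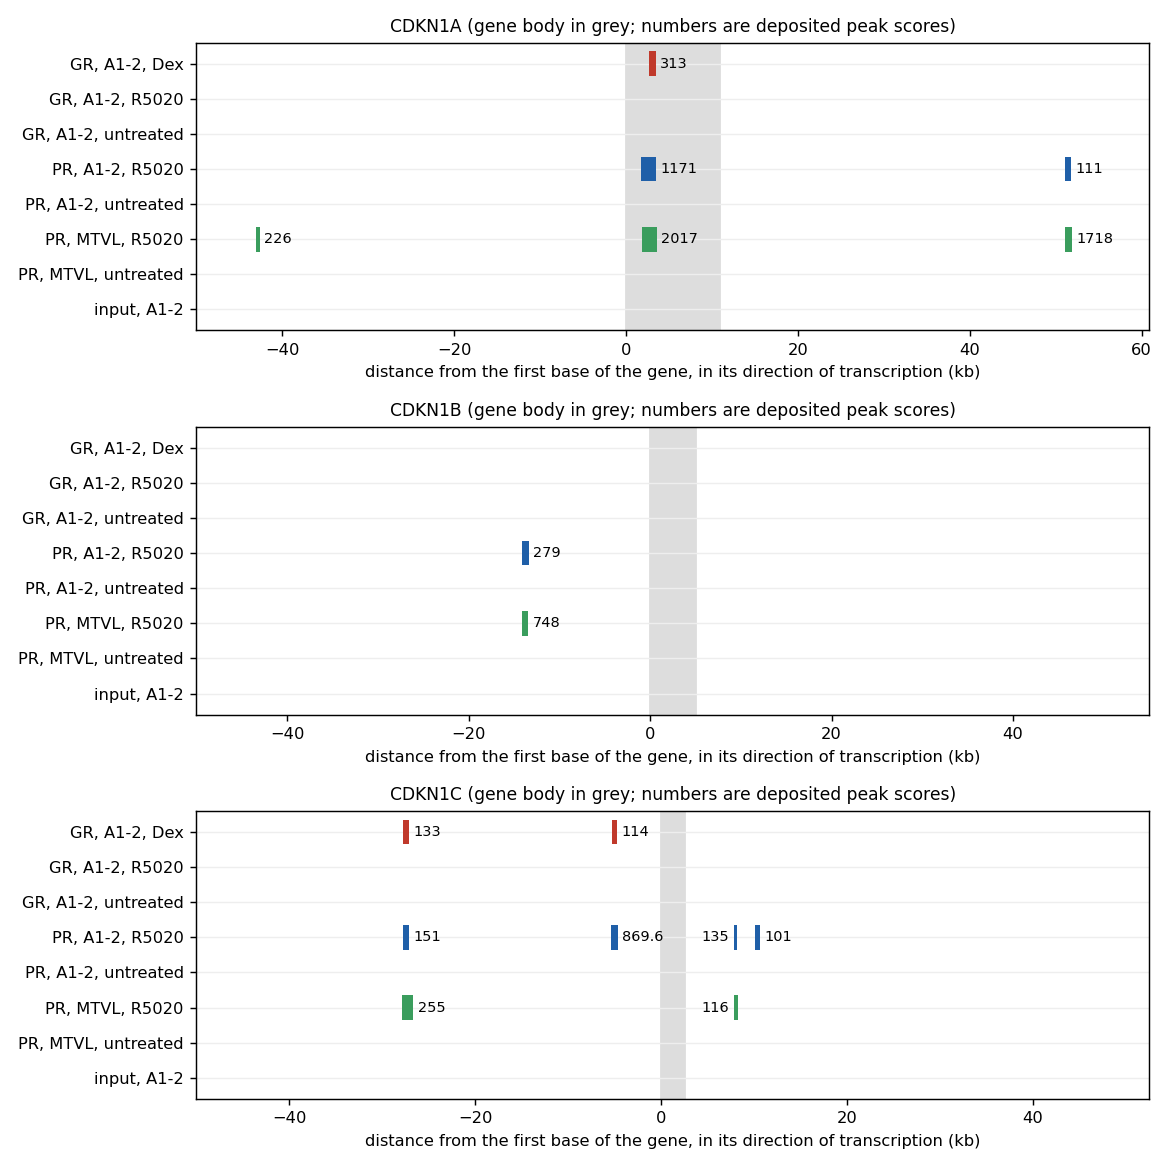
Peaks listed within 50 kb of CDKN1A, CDKN1B and CDKN1C in the 8 lists (rows), placed by distance in kb from the first base of the gene in its direction of transcription, with peak widths to scale and the gene body in grey. Numbers are deposited scores, and the 5 rows of GR after R5020, untreated cells and input are empty at all 3 genes.

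CDKN1A (hg19, chr6:36644237-36655116, plus strand) carried the strongest site of the 8. In the gene body, GR after Dex had a peak at chr6:36646936-36647711 with a score of 313. PR of A1-2 cells had one at chr6:36645939-36647772 with a score of 1171, and PR of MTVL cells one at chr6:36646037-36647786 with a score of 2017. The deposited score is the authors' own value for each peak and rises as the caller's p falls, and it ranks peaks within a list only. The peak at CDKN1A outscored 71.3% of the list for GR after Dex, 88.6% of the list for PR in A1-2 cells and 90.6% of the list for PR in MTVL cells.

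The PR peaks in CDKN1A were broad, at 1834 bp in A1-2 cells and 1750 bp in MTVL cells, wider than 98.5% and 98.6% of the peaks in their lists. The GR peak was 776 bp wide, wider than 73.4% of its list, and lay in the 3′ part of the region that the PR peaks covered. Counted from the first base of the gene body, the GR peak ran from 2699 to 3474 bp, the PR peak of A1-2 cells from 1702 to 3535 bp and the PR peak of MTVL cells from 1800 to 3549 bp. In GRCh38 the RefSeq start of transcription used for the promoter above lies 2251 bp from the first base of the gene. Set beside that distance, both PR peaks spanned the start and the GR peak began 448 bp after it. The gene models of the 2 builds differ by 10 bp in length, so these distances are approximate. The midpoint of the GR peak was 468 bp from that of the A1-2 PR peak and 412 bp from that of the MTVL PR peak, while the PR midpoints of both lines were 56 bp apart.

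The other sites of CDKN1A were PR sites without a GR peak. Downstream, 40.2 kb beyond the gene body, the PR peak of A1-2 cells at chr6:36695338-36695981 had a score of 111 and that of MTVL cells at chr6:36695323-36696091 had a score of 1718. The A1-2 peak stood above 7.72% of its list and the MTVL peak above 88.5% of its own. Upstream, 42.6 kb before the gene body, A1-2 cells had no PR peak, and MTVL cells had one at chr6:36601172-36601605 with a score of 226, above 38.5% of its list. In RefSeq the closest protein-coding neighbours of CDKN1A are SRSF3 on the upstream side and RAB44 on the downstream side.

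CDKN1B (hg19, chr12:12870302-12875305, plus strand) had 1 site, of PR in both lines, and no peak in its gene body. The PR peak of A1-2 cells lay at chr12:12856161-12856902 with a score of 279 and that of MTVL cells at chr12:12856160-12856893 with a score of 748. Both were 13.4 kb upstream of the gene, and their midpoints were 5 bp apart. The A1-2 peak stood above 55.3% of its list and the MTVL peak above 73.6%. The nearest GR peak after Dex lay 379.6 kb from CDKN1B with a score of 758. GPR19 is the closest protein-coding neighbour on the upstream side and APOLD1 on the downstream side.

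CDKN1C (hg19, chr11:2904448-2906995), which is transcribed from the minus strand, had 4 sites and 2 GR peaks, and none of these peaks touched the gene body. Its number of sites exceeded that of CDKN1A only through weak peaks: at a score of 200 or more CDKN1C had 2 sites and CDKN1A 3, with the GR peak of CDKN1A as the one left, and with lists of equal length both genes had 2 sites. A functional glucocorticoid response element has been described upstream of this gene in human cells. Whether it lies in any site here was not examined. The near upstream site began 4.7 kb before the gene. GR after Dex had a peak there at chr11:2911749-2912294 with a score of 114, and PR of A1-2 cells one at chr11:2911673-2912428 with a score of 869.6. MTVL cells had no PR peak at this site. The A1-2 PR peak stood above 84.1% of its list, whereas the GR peak was among the weaker ones of its list, above 12.6%. The midpoints of the GR and PR peaks were 29 bp apart.

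At the far upstream site of CDKN1C all of the 3 lists had a peak. GR after Dex was listed at chr11:2934144-2934766 with a score of 133. PR was listed in A1-2 cells at chr11:2934141-2934808 with a score of 151, and in MTVL cells at chr11:2933655-2934836 with a score of 255. These peaks were moderate or weak, above 25.7%, 27.1% and 43.1% of their lists in the same order. The midpoints of the GR and A1-2 PR peaks lay 19.5 bp apart. The GR peak was 623 bp wide, the PR peak of A1-2 cells 668 bp and that of MTVL cells 1182 bp, and the PR midpoints of both lines were 229 bp apart.

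Downstream of CDKN1C both sites were weak PR sites. The near one, 5.3 kb beyond the gene, was listed for PR of A1-2 cells at chr11:2898778-2899165 with a score of 135 and for PR of MTVL cells at chr11:2898752-2899165 with a score of 116. The far one, 7.6 kb beyond the gene, was listed only for PR of A1-2 cells, at chr11:2896377-2896868, with a score of 101, above 0.588% of that list and next to the lowest score of 100 that any list holds. These 3 peaks were narrow, at 388, 414 and 492 bp. KCNQ1 is the closest protein-coding neighbour on the downstream side and SLC67A1 on the upstream side.

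**Figure D2:**
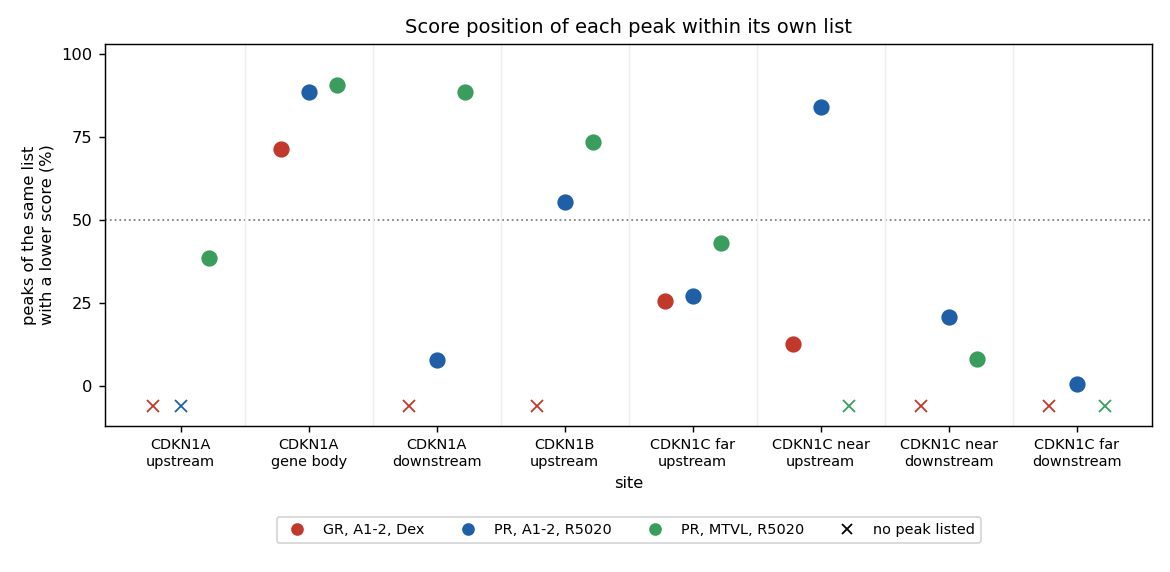
Share (%) of the peaks of the same list that scored lower than the peak at each of the 8 sites, for GR of A1-2 cells after Dex, PR of A1-2 cells after R5020 and PR of MTVL cells after R5020, with crosses below 0 where no peak was listed and a dotted line at 50%. The site in the CDKN1A gene body is high in all 3 lists, the downstream site of CDKN1A is low for A1-2 and high for MTVL cells, and the near upstream site of CDKN1C is high for PR of A1-2 cells with no MTVL peak.

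The places of GR peaks after Dex and of PR peaks after R5020 in A1-2 cells were compared next. Hormone and library differed, so an overlap is a shared place and does not show both receptors bound at once. Each of the 3 GR Dex peaks near the genes overlapped an A1-2 PR peak after R5020. Over the whole GR list after Dex 73.9% of peaks did (exact 95% interval 73.2 to 74.5, which covers counting error only). In the score deciles that hold the 3 peaks the share averaged 67.3%. Of the 7 A1-2 PR peaks 3 overlapped a GR Dex peak, a share close to the 48% of the whole list and to the 42.8% that the deciles of these peaks averaged. The counts at the 3 genes thus stood near the background of the lists. GR and PR were nearly concentric at both upstream sites of CDKN1C and offset in CDKN1A.

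**Figure D3:**
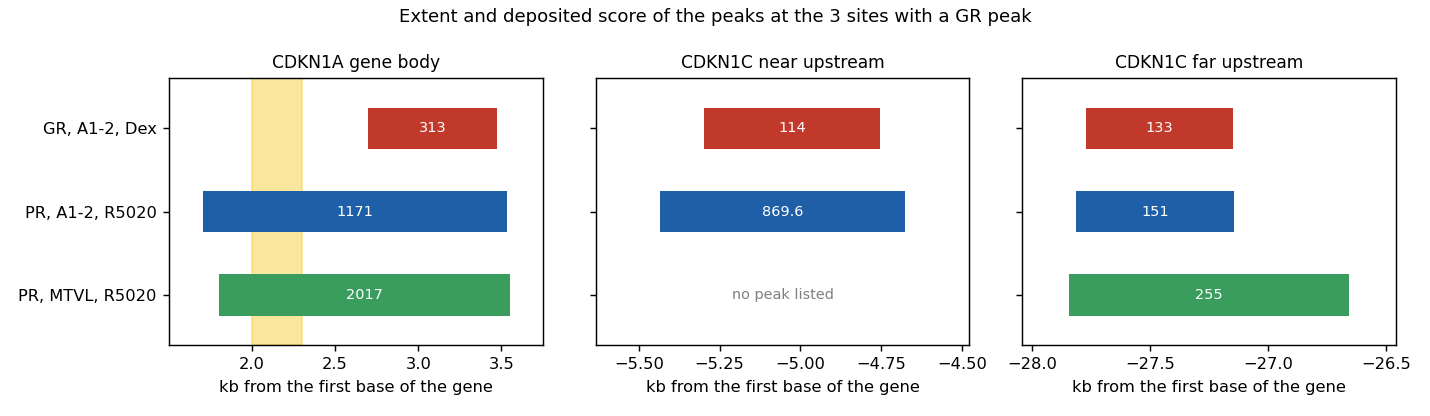
Extent of the peaks at the 3 sites with a GR Dex peak, in kb from the first base of the gene (negative upstream), with deposited scores inside the bars; the yellow band marks the 300-base RefSeq promoter at its distance from the first base of the gene in GRCh38, and the x axes differ in range. In CDKN1A the GR peak begins beyond the band while both PR peaks span it, and at the near upstream site of CDKN1C no MTVL peak is listed.

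PR binding after R5020 was then compared between the lines. Of the 7 PR peaks in A1-2 cells 5 were also listed in MTVL cells, against 82.6% of the whole A1-2 list and an average of 77.1% in their deciles. Of the 6 in MTVL cells 5 were also listed in A1-2 cells, against 53.9% of the whole MTVL list and an average of 60.9% in their deciles. Of the 3 GR peaks after Dex 2 coincided with PR in MTVL cells, against 69.3% of all GR peaks after Dex. These counts rest on a few peaks each.

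A pair of sites stood apart from the bulk of their lists. They were picked from the 8 sites by these same values, so the shares given for them are descriptive and test nothing. The PR peak of A1-2 cells near upstream of CDKN1C had no MTVL counterpart, and among the 4545 A1-2 PR peaks that scored as high or higher 50 had none, or 1.1%. In its own decile 1.93% had none. Downstream of CDKN1A the PR peak was called in both lines but held very different positions in the lists. Of the 23602 A1-2 PR peaks with an MTVL counterpart, 89 (0.377%) had a position as far below that of the counterpart, in percentage points, or further. Where several MTVL peaks overlapped, the highest-scoring one was the counterpart, a rule that can only raise its position. Among all these pairs the median difference, A1-2 minus MTVL, was -6.5 points, and it was -2.1 points at the CDKN1A gene body, -18.3 at CDKN1B, -16.0 at the far upstream site of CDKN1C, 12.5 at the near downstream site of CDKN1C and -80.8 at the downstream site of CDKN1A. A position in a list is not a level of binding, and lists of unequal length show no change by it. The upstream site of CDKN1A, which A1-2 cells lacked, was less unusual, since 63.0% of the MTVL peaks of its decile lacked an A1-2 peak. The same held for the far downstream site of CDKN1C, where 43.3% of the A1-2 peaks of the decile lacked an MTVL peak.

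**Figure D4:**
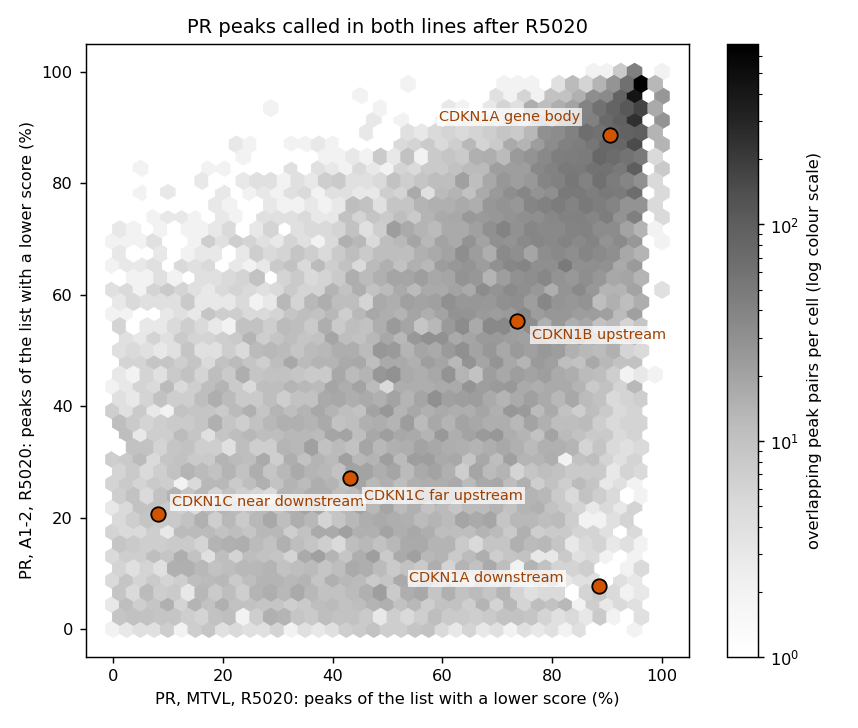
Position of PR peaks called in both lines after R5020, as the share (%) of the A1-2 list (y axis) and of the MTVL list (x axis) with a lower score, for all 23602 A1-2 peaks with an MTVL counterpart (hexagons, log colour scale for the number of pairs) and for the 5 shared sites near the genes (orange). The downstream site of CDKN1A lies at 7.72% on the y axis and 88.5% on the x axis, away from the other shared sites.

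Merging the 3 lists gave 51865 regions, in which the frequency of each pattern was counted. GR stands here for the Dex list of A1-2 cells, since GR was not precipitated from MTVL cells. GR with PR in both lines, the pattern in the CDKN1A gene body and far upstream of CDKN1C, made up 22.4% of regions and 2 of the 8 sites. PR in both lines without a GR Dex peak made up 22.5% of regions and 3 of the 8 sites. Those sites were the one at CDKN1B, that downstream of CDKN1A and that near downstream of CDKN1C. PR of MTVL cells alone, as upstream of CDKN1A, made up 36.4% of regions, and PR of A1-2 cells alone, as far downstream of CDKN1C, 5.75%. GR with PR of A1-2 cells and no MTVL peak, as near upstream of CDKN1C, made up 3.67%. Each of these last 3 patterns held 1 of the 8 sites.

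How many peaks a stretch of this length usually held was read from consecutive windows of the same length along chromosomes 1 to 22 and X. These windows include stretches far from any gene. At CDKN1A, 35% of windows had at least 1 GR Dex peak, 24.9% had at least 2 PR peaks of A1-2 cells and 24.1% had at least 3 PR peaks of MTVL cells, which are the numbers found there. At CDKN1B the gene's window had 0 GR Dex peaks while 33.8% of windows had at least 1. For its single PR peaks the shares of windows with at least 1 were 44.8% in A1-2 cells and 58.7% in MTVL cells. At CDKN1C 15% of windows had at least 2 GR Dex peaks, 7.57% had at least 4 PR peaks of A1-2 cells and 35.9% had at least 2 PR peaks of MTVL cells. The 4 PR peaks of A1-2 cells near CDKN1C were thus the least common of these numbers, and 3 of the 4 scored 151 or less.

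Over all 3 genes the middle score lay below that of the whole list for GR and PR of A1-2 cells and above it for PR of MTVL cells. The median score was 133 for the 3 GR Dex peaks, against 192 for the whole list. For PR of A1-2 cells it was 151 for the 7 peaks, against 243 for the list, and for PR of MTVL cells it was 502 for the 6 peaks, against 312. As positions in the lists, the medians were 25.7%, 27.1% and 58.3% in the same order. The peaks ranged from 12.6% to 71.3%, from 0.588% to 88.6% and from 8.15% to 90.6%. With 3, 7 and 6 peaks these medians set no list apart.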

How the data were processed

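ChIP-seq peak lists of 8 libraries of T47D cells were used. Mapping and peak calling were the authors' own, with MACS 1.4.2, Bowtie 1.1.1, bedtools and the hg19 build named in the submitters' processing notes. Apart from the p threshold in the deposited names, the sources used here do not give the settings, the control library or the read depth. Each deposited list gives peaks of 1 library with the authors' score per peak, taken as the value that MACS derives from the peak's p on a log10 scale, since the lowest score is 100 and the deposited names give 1e-10.

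The genes and comparisons were chosen with earlier results of these data known. Gene bodies in hg19 came with the choice of genes. All deposited peaks were kept, input peaks were not subtracted, starts were converted to count from 1, and an overlap of at least 1 bp counted as shared. Every site was named, since no gene had more than 10. Shares over whole lists have exact Clopper-Pearson 95% intervals. Other windows, a higher score, removal of input or untreated peaks, other overlap rules and lists of equal length were tried. The overlap step was tested on simulated data. RefSeq tables (GRCh38.p14) gave neighbours and promoters, with 2 of the 3 genes matched among promoters. No annotation of hg19 was used, so genes of like pattern and other cell cycle genes were not analysed here. Python 3.11.15, numpy 2.4.6, pandas 2.3.3, scipy 1.17.1 and matplotlib 3.10.9 were used.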

Additional observations from a re-analysis of the deposited data

How the results depend on the processing

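Of 81 values (9 results under 9 alternatives), 67 stayed within 1.5 times the reported count and 14 moved further. Removing peaks at input or untreated peaks, counting peaks by midpoint and both stricter overlap rules moved none of the 9 results beyond that limit. Within it, asking for midpoints within 200 bp left 2 GR Dex peaks shared with A1-2 PR in place of 3. The GR peak in CDKN1A, with its midpoint 468 bp from that of the A1-2 PR peak, was the one lost. That rule also gave 4 shared MTVL PR peaks in place of 5, with 4 sites at CDKN1A and 5 at CDKN1C. A window of 20 kb gave 1 site at CDKN1A, 3 MTVL PR peaks and 3 of them shared with A1-2 cells. A window of 100 kb gave 3 sites at CDKN1B and 11 MTVL PR peaks. Asking a score of 200 or more of each list left 2 sites at CDKN1C against 3 at CDKN1A, which turned their order, and 1 GR Dex peak, which overlapped an A1-2 PR peak (1 in place of 3), 3 A1-2 PR peaks and 2 shared MTVL PR peaks. Lists of equal length (18538 peaks) left 2 sites at CDKN1C, as at CDKN1A, 3 A1-2 PR peaks, 3 MTVL PR peaks and 2 shared MTVL PR peaks. Of the GR Dex peaks, 2 in place of 3 then overlapped an A1-2 PR peak, a change at the limit of 1.5 itself. These last 2 settings drop low-scoring peaks by construction. No paired analysis was possible because each condition had 1 library. The read depth was unknown, and a deeper library lists more weak peaks, so the absence of a weak peak is not shown to be absence of binding.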

Other observations

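Between 50 and 100 kb from the genes the lists held 5 more sites, all of PR and none of GR. CDKN1B had 2 of them on the downstream side. At chr12:12956126-12956517 the PR peak of A1-2 cells scored 142, above 23.7% of its list, and the MTVL peak at chr12:12956046-12956597 scored 919, above 77.9%. The second, at chr12:12961066-12961611, was listed for MTVL cells with a score of 501 and not for A1-2 cells. At CDKN1C a downstream site was listed for A1-2 cells at chr11:2846543-2847167 with a score of 189.95 and for MTVL cells at chr11:2846459-2847580 with a score of 899.9, and an upstream site at chr11:2974222-2974717 was listed for MTVL cells alone with a score of 134. At CDKN1A the MTVL list had a PR peak at chr6:36571136-36571809 with a score of 233. In all, A1-2 cells had 2 PR peaks in this outer range and MTVL cells 5. A GR Dex peak was listed there at 0 of the 3 genes, a PR peak of A1-2 cells at 2 and a PR peak of MTVL cells at 3, where 32.9%, 43.6% and 57.4% of consecutive windows of 100 kb held at least 1 in the same order. The outer range of a gene is 2 separate stretches of 50 kb while each window was unbroken, so the shares are a rough guide. With 3 genes these counts are not set apart from those shares.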
